A study of Mus musculus with 16 samples.

Results

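The genes described here encode enzymes and regulators that build cholesterol and fatty acids. A list of 34 genes was taken by name with earlier results of these data known, so its shares beside those of all genes are descriptive. A gene counted as measured when the array had a probe set (a group of short probes read out as 1 value) assigned to its symbol alone. This left 32 of the 34 genes, out of 12393 genes in all, and Acat2 and Insig1 were not analysed here. Where a gene had several such probe sets, the one with the highest mean was used.

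RNA was measured on 16 Affymetrix mouse arrays in J1 mouse embryonic stem (ES) cells, a line from the early embryo kept here on gelatin with serum and the self-renewal factor LIF. In the knockdown arm, 2 arrays carried cells depleted of Tgif1 (Tgif1 KD) and 2 carried cells with a control hairpin (shControl). In the overexpression arm, 4 arrays were labelled as overexpressing Tgif1 (Tgif1 OE), 4 as overexpressing Tgif2 (Tgif2 OE), and 4 came from cells expressing the biotin ligase BirA (BirA control). All cells were of the same J1 background, and the labels give neither the hairpins, the promoter that drove a transgene, the clone, nor the time after the perturbation. Separate cultures are not stated for the replicates, and p-values cover the spread between these arrays, which may be technical. Values are log2 intensities, on which a difference of 1 is a doubling, and levels are compared between groups for 1 gene and never between genes.

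The targeted genes were read first as a check of the labels. Tgif1 averaged 7.29 ± 0.25 log2 (SD, n = 2) on Tgif1 KD and 10.69 ± 0.04 on shControl, a change of -3.39 ± 0.10 (SE). Tgif1 did not rise on the arrays labelled Tgif1 OE: its mean was 10.12 ± 0.10 (SD, n = 4) against 10.69 ± 0.04 on BirA control, a fall of 0.58 on the log2 scale. Tgif2 averaged 9.37 ± 0.09 on the arrays labelled Tgif2 OE and 9.26 ± 0.08 on BirA control, a difference of 0.11 ± 0.07 (adjusted p = 0.208). Both overexpression groups therefore go by their labels only, and each direction given for them is that of the labelled arrays. Of 12 ES cell markers, 0 were among the dim genes that an alternative fit leaves out, and their mean lay between 11.3 and 12.3 log2 over all arrays. Of 13 fibroblast markers, 9 were among those dim genes (means of 4.56 to 5.46), as were 5 of 7 measured markers of adipocytes and hepatocytes (4.48 to 4.85). These are signals of different probe sets, so the means of the lists are not set against one another.

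Cells make cholesterol from acetyl-CoA through the mevalonate route, which leads to isoprenoids and squalene, and then through a series of sterol conversions. Fatty acids come from the same acetyl-CoA and need NADPH, and desaturases and elongases then shape the chains. The transcription factors encoded by Srebf1 and Srebf2 switch on many of these genes when sterols run low, binding sterol regulatory elements together with the factor NF-Y, which binds CCAAT boxes. ES cells, which divide fast, need both lipids for new membrane. Tgif1 and Tgif2 are homeodomain repressors whose homeodomain recognises a TGTCA core and which also bind Smad proteins.

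Promoter windows from 250 bases before to 50 bases after the start site were available for 27 of the 34 genes (RefSeq, build GRCm38.p6). Each window was searched on both strands for 3 motifs, namely the sterol regulatory element TCACNCCAC, the CCAAT box and the Tgif core TGTCA. Those printed here are Hmgcs1, which held the only match to the sterol regulatory element among the 27 genes, Mvk, which held the most CCAAT boxes, and Acss2, which was among the members with the largest changes in all 3 comparisons with a control and held a pair of Tgif cores. Capitals mark motif matches, and ATTGG is the CCAAT box on the opposite strand.

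Hmgcs1: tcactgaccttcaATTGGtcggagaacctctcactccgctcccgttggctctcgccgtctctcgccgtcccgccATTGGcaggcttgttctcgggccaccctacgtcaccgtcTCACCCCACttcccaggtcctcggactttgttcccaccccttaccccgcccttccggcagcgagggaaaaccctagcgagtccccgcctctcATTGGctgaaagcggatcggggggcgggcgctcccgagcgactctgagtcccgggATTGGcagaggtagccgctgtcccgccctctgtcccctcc

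Mvk: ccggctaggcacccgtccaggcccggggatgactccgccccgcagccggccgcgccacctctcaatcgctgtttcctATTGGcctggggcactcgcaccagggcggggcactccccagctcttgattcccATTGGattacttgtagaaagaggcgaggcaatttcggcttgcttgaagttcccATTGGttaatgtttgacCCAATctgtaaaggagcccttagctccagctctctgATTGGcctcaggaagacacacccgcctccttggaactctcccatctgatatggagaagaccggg

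Acss2: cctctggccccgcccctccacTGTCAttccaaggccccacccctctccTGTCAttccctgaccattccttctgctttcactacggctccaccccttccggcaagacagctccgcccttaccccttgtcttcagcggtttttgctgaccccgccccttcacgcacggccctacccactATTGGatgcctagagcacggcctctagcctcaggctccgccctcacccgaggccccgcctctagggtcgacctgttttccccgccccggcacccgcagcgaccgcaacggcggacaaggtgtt

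The windows lie at chr13:119690101-119690400 (Hmgcs1), chr5:114444019-114444318 (Mvk) and chr2:155517793-155518092 (Acss2), all on the plus strand, and no motif overlapped another in them. In Hmgcs1, the sterol regulatory element began 137 bases upstream of the start site, between CCAAT boxes at 176 and 45 bases upstream. Mvk had 5 CCAAT boxes, at 173, 120, 67, 50 and 14 bases upstream. Acss2 had 1 CCAAT box at 73 bases upstream and Tgif cores at 229 and 202 bases upstream.

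CCAAT was present in the windows of 22 of the 27 genes (81.5%), against 11096 of all 27025 genes with a window (41.1%). The Tgif core was found for 14 of the 27 (51.9%), against 49.3% of all genes. As in Acss2, 2 Tgif cores were found in the window of Idi1 and in a window of Pmvk, whereas Acss1 and Elovl6 held 0. A link between the cores and the changes was not tested. The sterol regulatory element in this spelling was found for 1 of the 27 (3.70%), against 1.44% of all genes. Among the 9887 genes with a window that were measured on the arrays, the shares were 42.3% for CCAAT and 42.9% for the Tgif core. For the sterol regulatory element the share among them was 1.50%. A gene counts if any of its windows holds the motif, and the 27 include Acat2 and Insig1. A match is a string of letters in the window and no evidence of binding.

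Knockdown of Tgif1 lowered 13 of the 32 measured genes (limma, adjusted p under 0.05 over all genes) and raised 5. The background was 12.9% of all genes lower and 12.5% higher, or 25.4% in either direction, against 40.6% of the members lower and 15.6% higher. Genes of the mevalonate route, of squalene formation and of desaturation made up most of the falls, whereas the acetyl-CoA synthetase genes Acss1 and Acss2 and the kinase gene Pmvk rose by the most. The median change of the members was -0.12 log2, against -0.05 over all genes. The changes in the 3 comparisons with a control are drawn together in the dot plot of members by role.

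**Figure D1:**
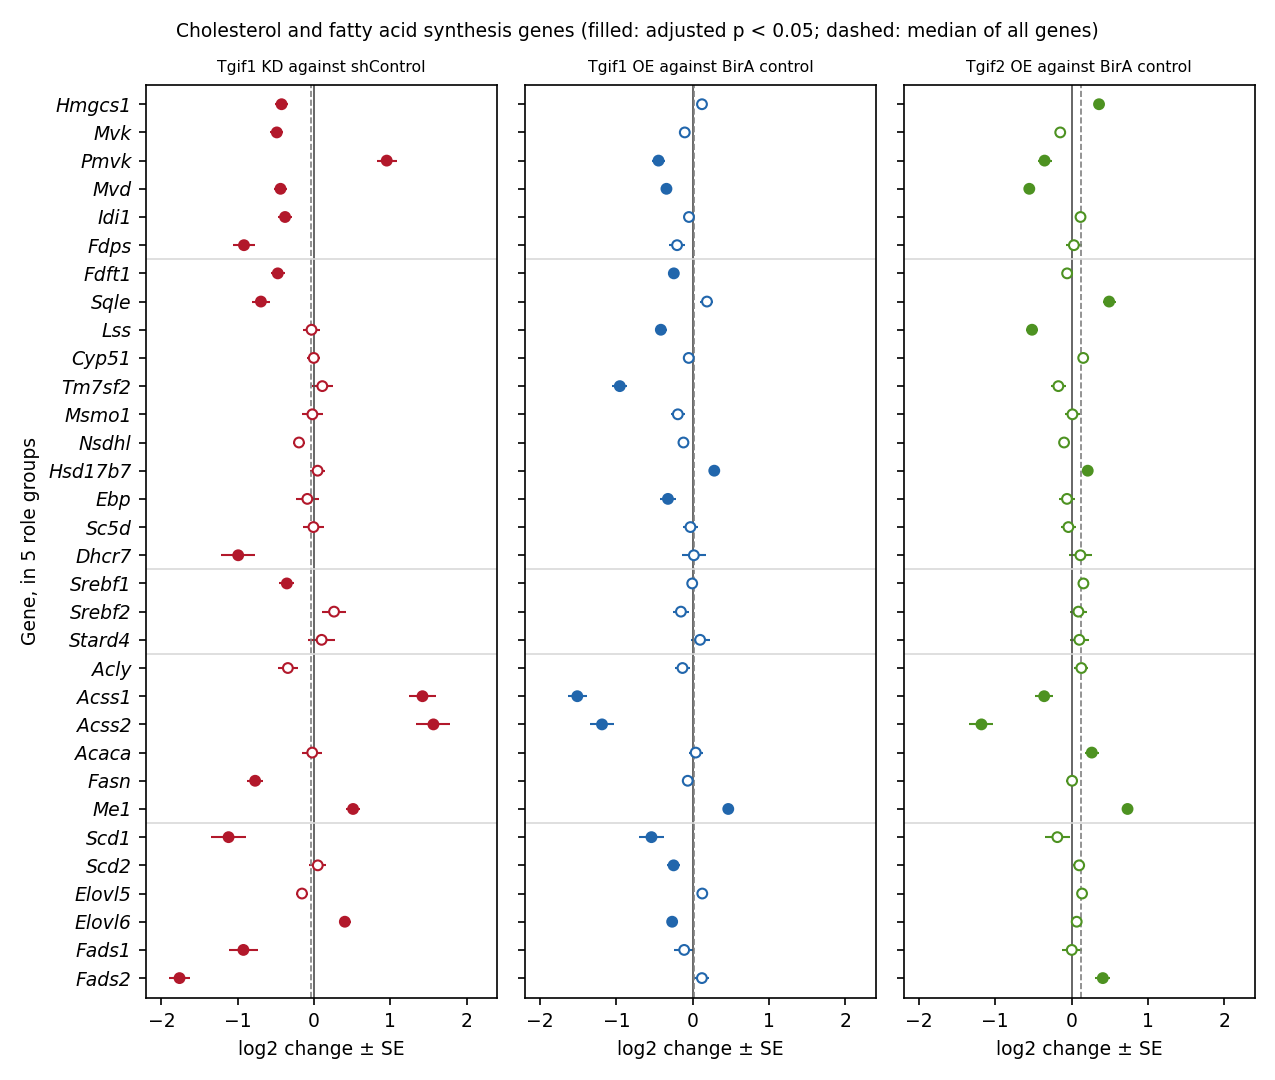
Log2 change of each of the 32 measured members, grouped by role, with its standard error, in the 3 comparisons with a control; filled points passed the adjusted p of 0.05 and the dashed line is the median of all genes. Fads2, at -1.76 on Tgif1 KD, and Acss1, at -1.51 on the arrays labelled Tgif1 OE, are among the points farthest from 0.

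Fads2 encodes the desaturase that starts the conversion of linoleic acid to longer polyunsaturated fatty acids, and it fell by the most. Its level was 6.56 and 6.34 log2 on the Tgif1 KD arrays and 8.19 and 8.24 on the shControl arrays. Both knockdown arrays thus lay far below both controls, with a change of -1.76 ± 0.14 (adjusted p = 5.40e-07) that left 29.5% of the control signal. A second Fads2 probe set changed by -1.53. As these are whole-culture RNA measurements, fewer cells with a transcript and less of it per cell cannot be told apart.

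Fads1 encodes a desaturase of a later step in the same conversion, and Fads2 is its next protein-coding neighbour on the chromosome. It stood at 7.67 and 7.75 on Tgif1 KD and at 8.63 and 8.64 on shControl, a fall to 52.6% of control (-0.93 ± 0.19, adjusted p = 0.00168). Fads3, the neighbour on the other side of Fads2 and no member of the list, fell by 0.75 ± 0.18 (adjusted p = 0.00688). Its signal was low, at 4.27 and 4.73 on Tgif1 KD and 5.24 and 5.25 on shControl. All 3 genes of this row of neighbours were lower after the knockdown.

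Scd1, a desaturase that turns saturated into monounsaturated fatty acids, read 9.13 and 9.30 on Tgif1 KD and 10.31 and 10.36 on shControl. The groups did not overlap, and the change was -1.12 ± 0.23 (adjusted p = 0.00192), with -1.48 on its second probe set. Its close relative Scd2 did not pass the test (0.05 ± 0.11, adjusted p = 0.805), and its other probe sets gave 0.47 and -0.01. Whether probes for the pair cross-hybridize was not tested. Among the elongases, Elovl6, which lengthens palmitate, rose by 0.40 ± 0.08 (adjusted p = 0.00156), and Elovl5 was at -0.16 ± 0.08 without passing.

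The acetyl-CoA synthetases moved the other way from the desaturases. Acss2 activates acetate in the cytosol and nucleus, and Acss1 does so in mitochondria. Acss2 read 8.92 on both Tgif1 KD arrays, against 7.37 and 7.34 on shControl. That is 2.96-fold of control (1.56 ± 0.22, adjusted p = 1.07e-04), with 1.83 on a second probe set. Acss1 read 8.01 and 7.71 against 6.43 and 6.45, which is 2.68-fold of control (1.42 ± 0.17, adjusted p = 2.66e-05). The remaining Acss1 probe sets were dim and gave 0.56 and -0.13, so the size of the rise of Acss1 rests on 1 probe set, and the mean of the 3 gave 0.62.

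Of the other genes listed under acetyl-CoA, NADPH and fatty acid synthesis, Fasn, the fatty acid synthase, fell. It stood at 9.91 and 10.00 on Tgif1 KD and at 10.70 and 10.75 on shControl (-0.77 ± 0.11, adjusted p = 1.05e-04). Me1, the cytosolic malic enzyme and a source of NADPH, rose by 0.51 ± 0.09 (adjusted p = 7.68e-04), and by 0.71 on its second probe set. Acly, which makes acetyl-CoA from citrate, was at -0.34 ± 0.13 (adjusted p = 0.0719). Acaca, the acetyl-CoA carboxylase, was at -0.02 ± 0.13 from a dim probe set that ranked at the 8.5th percentile of genes. In this group of 6 genes, 3 rose (50.0%) and 1 fell (16.7%), against 12.5% and 12.9% of all genes.

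All 6 measured genes of the mevalonate route passed the test on Tgif1 KD, against 25.4% of all genes. Of them 5 were lower (83.3%, against 12.9% of all genes). Fdps, the farnesyl pyrophosphate synthase, fell by the most of these, from 10.83 and 10.84 on shControl to 9.84 and 9.99 (-0.92 ± 0.15, adjusted p = 3.47e-04), or by 0.54 on the mean with its dim second probe set. Smaller falls were seen for Mvk, the mevalonate kinase (-0.49 ± 0.08), Mvd, the mevalonate decarboxylase (-0.44 ± 0.08), Hmgcs1, which makes HMG-CoA (-0.43 ± 0.09), and Idi1, the isopentenyl isomerase (-0.38 ± 0.09). Mvk is uncertain, because its other probe set gave 0.18 and the mean of both ended the call (adjusted p = 0.158, range over its alternatives 2.39e-04 to 0.158).

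Pmvk, whose product phosphorylates the mevalonate phosphate made by Mvk, was the exception in this route. It read 9.90 and 9.86 on Tgif1 KD and 8.93 on both shControl arrays. It was thus raised to 1.93-fold of control (0.95 ± 0.13, adjusted p = 6.65e-05) between neighbouring steps whose genes fell.

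In the 11 genes from squalene to cholesterol, 3 fell and 0 rose, and 0 were higher at an unadjusted p under 0.05 in limma either. The 27.3% called is near the 25.4% of all genes in either direction, and 12.9% of all genes were lower. Dhcr7, the reductase that makes cholesterol from its direct precursor, read 7.78 and 8.13 on Tgif1 KD and 8.85 and 9.04 on shControl (-0.99 ± 0.22, adjusted p = 0.00356). Without Tgif1 KD replicate 1 this call was lost (adjusted p = 0.0505, range over its alternatives 5.20e-05 to 0.0505). Sqle, the squalene epoxidase, read 9.57 and 9.64 against 10.27 and 10.34 (-0.70 ± 0.12, adjusted p = 5.11e-04). Fdft1, the squalene synthase, fell by 0.48 ± 0.09, or by 0.31 on the mean of its probe sets.

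The other 8 genes of this stretch did not pass, with changes between -0.20 and 0.11. These were Lss, which closes the sterol rings, Cyp51, Tm7sf2, Msmo1, Nsdhl and Hsd17b7, which trim and reduce lanosterol, and Ebp and Sc5d, which act on the ring double bonds. Lss was at -0.03 ± 0.12, with 0.32 and 0.11 on its other probe sets, and Cyp51 at -0.00 ± 0.08. Nsdhl (-0.20 ± 0.07) was lower at an unadjusted limma p of 0.0167, with an adjusted p of 0.0614. The called falls of this stretch were thus those of Fdft1, Sqle and Dhcr7, and a missing call is no evidence that a gene was unchanged.

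Of the regulators, Srebf1 fell by 0.36 ± 0.10 (adjusted p = 0.0158) to 78.1% of control, and lost its call when any of 3 arrays was left out (Tgif1 KD replicate 1, Tgif1 KD replicate 2 or shControl replicate 2). The highest adjusted p was then 0.156, in a range over its alternatives of 0.00992 to 0.156. Srebf2 (0.26 ± 0.15, adjusted p = 0.236) and Stard4, a carrier of cholesterol (0.10 ± 0.17), did not pass, and in both a second probe set had the opposite sign (-0.39 and -0.23). Idi1 also lost its call without shControl replicate 1 (adjusted p = 0.0601, range over its alternatives 0.00210 to 0.0601).

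A measure of RNA quality moved with the knockdown. The signal at the 5′ end of Gapdh relative to its 3′ end was -0.10 to -0.08 log2 on Tgif1 KD and -0.22 to -0.21 on shControl, and that of Actb was -0.52 to -0.49 against -0.67 to -0.61. Each knockdown array lay above each control array in both. Of the 12 ES cell markers, 3 were higher (25.0%, against 12.5% of all genes) and 0 lower on Tgif1 KD, with 0 lower at an unadjusted limma p under 0.05 too. The part of either in the changes above was not tested.

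**Figure D2:**
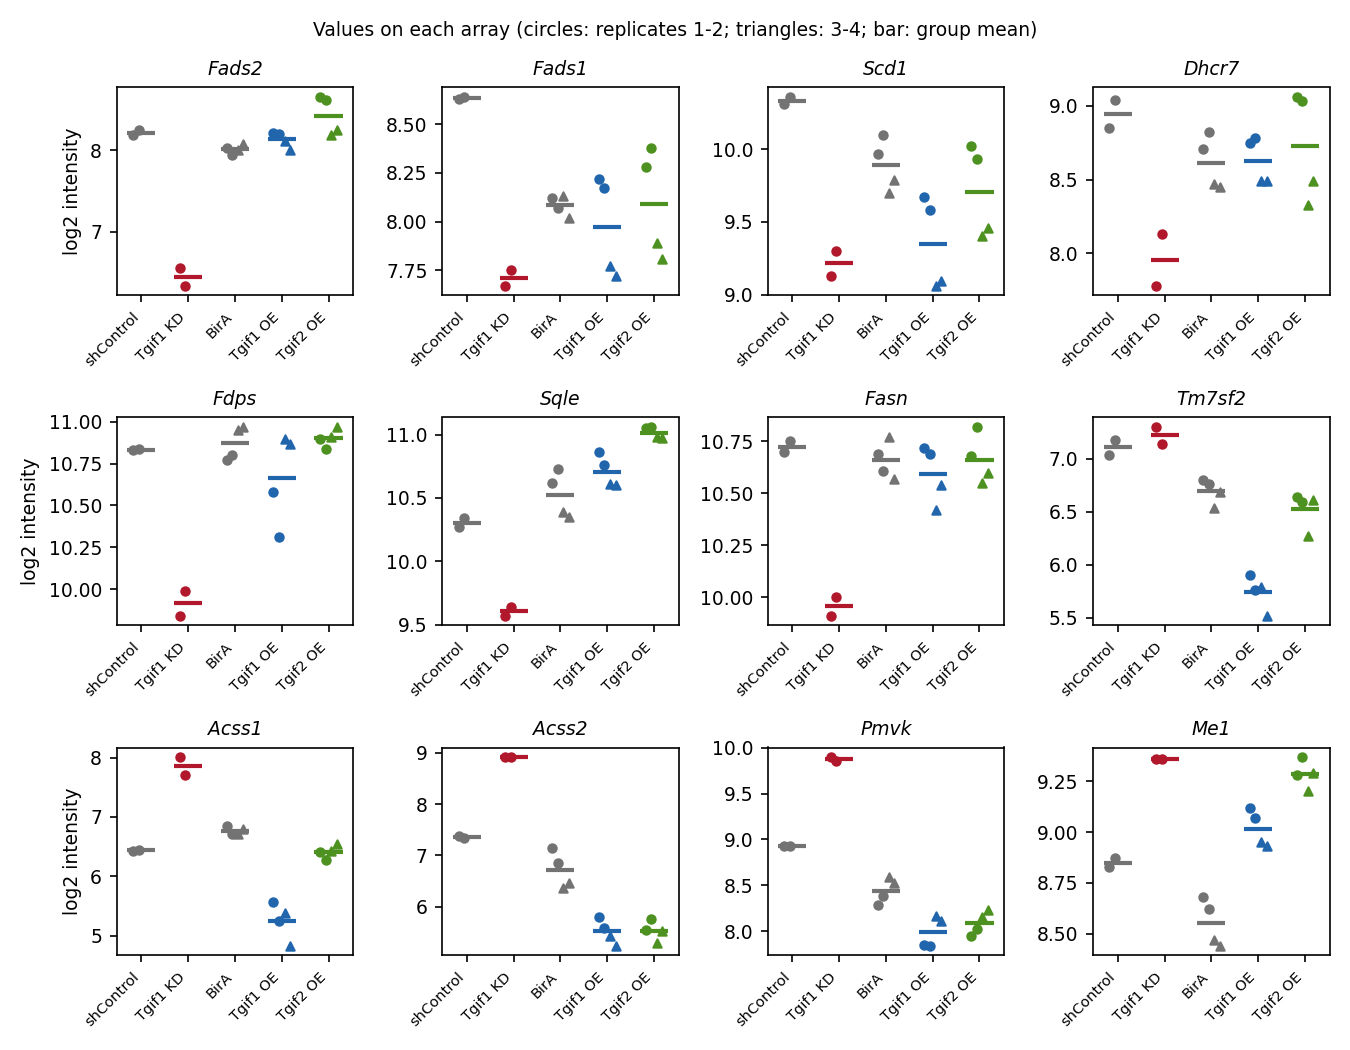
Level of 12 members on each of the 16 arrays, in log2 intensity, by group, with a bar at the group mean; circles are replicates 1 and 2 and triangles replicates 3 and 4, and each panel has its own axis. Acss2 lies at 8.92 on both Tgif1 KD arrays and between 5.24 and 5.81 on the arrays labelled Tgif1 OE.

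On the arrays labelled Tgif1 OE, 11 of the 32 members were lower than on BirA control and 2 were higher. Of all genes, 9.51% were lower and 11.4% higher, or 20.9% in either direction, against 34.4% of the members lower and 6.25% higher. Acss1, Acss2 and the sterol reductase gene Tm7sf2 fell by the most, and Me1 rose. The median change of the members was -0.12, against 0.01 over all genes. With the array pairs of each group (replicates 1 and 2, replicates 3 and 4) as a random block, 7 members were lower in place of 11. That fit does not model a shift shared by the groups.

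Acss1 read 5.56, 5.24, 5.39 and 4.83 log2 on the arrays labelled Tgif1 OE and 6.84, 6.72, 6.72 and 6.79 on BirA control. The gap between the groups exceeded the spread within either, and the signal fell to 35.0% of control (-1.51 ± 0.12, adjusted p = 1.25e-06). The dim probe sets of Acss1 gave -0.30 and -0.01, and the mean of all 3 gave -0.61. Acss2 read 5.81, 5.59, 5.44 and 5.24, against 7.15, 6.85, 6.37 and 6.47. It fell to 43.9% of control (-1.19 ± 0.16, adjusted p = 8.51e-05), with -1.96 on its second probe set.

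Tm7sf2 encodes a reductase that removes a double bond from the sterol ring after Cyp51 has acted. Its values were 5.90, 5.76, 5.79 and 5.52 on the labelled arrays and 6.80, 6.76, 6.54 and 6.69 on BirA control. Its groups were separate, at 51.5% of control (-0.96 ± 0.10, adjusted p = 9.42e-06).

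In the same stretch, Lss fell by 0.42 ± 0.08 (adjusted p = 0.00198) and Fdft1 by 0.25 ± 0.07 (adjusted p = 0.0124), while Hsd17b7, a sterol ketone reductase, rose by 0.28 ± 0.07 (adjusted p = 0.00667). Ebp was called lower (-0.33 ± 0.11, adjusted p = 0.0472) although its groups overlapped, and the call was lost in 7 of 17 alternatives, among them those without Tgif1 OE replicate 1 or 2 or BirA control replicate 3 or 4. Over replicates 3 and 4 alone, Fdft1 (-0.15) and Hsd17b7 (0.14) had no call, and Fdft1 also lost its call with array pairs as a random block (adjusted p = 0.0927, range over its alternatives 0.00337 to 0.170). The list of 11 genes thus held 4 falls (36.4%) and 1 rise (9.09%), against 9.51% and 11.4% of all genes. The remaining 6, between -0.20 and 0.19, did not pass.

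Pmvk and Mvd were the called genes of the mevalonate route. Pmvk read 7.85, 7.84, 8.16 and 8.11 on the labelled arrays and 8.28, 8.38, 8.59 and 8.52 on BirA control (-0.45 ± 0.09, adjusted p = 0.00238). Within each pair of arrays the difference was alike, -0.48 over replicates 1 and 2 and -0.42 over replicates 3 and 4. Mvd fell by 0.35 ± 0.06 (adjusted p = 4.75e-04). The other 4 genes of the route lay between -0.21 and 0.12 and did not pass.

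Me1 was raised as it was after the knockdown. It read 9.12, 9.07, 8.95 and 8.93 on the labelled arrays and 8.68, 8.62, 8.47 and 8.44 on BirA control (0.46 ± 0.07, adjusted p = 1.38e-04). All 4 labelled arrays lay above all 4 controls.

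Scd1 read 9.67, 9.58, 9.06 and 9.09 on the labelled arrays and 9.97, 10.10, 9.70 and 9.79 on BirA control. The lowest control stood just above the highest labelled array, and the change was -0.54 ± 0.16 (adjusted p = 0.0267). It is weakly held, with -0.11 on the second probe set and the call lost in 6 of 17 alternatives (adjusted p from 1.50e-04 to 0.131), among them those without Tgif1 OE replicate 3, Tgif1 OE replicate 4, BirA control replicate 1 or BirA control replicate 2. Elovl6 (-0.27 ± 0.06, adjusted p = 0.00299) and Scd2 (-0.25 ± 0.08, adjusted p = 0.0386) were also lower, and the groups of Scd2 overlapped. The mean of the probe sets of Scd2 gave -0.55. The call of Scd2 was lost in 9 of 17 alternatives, among them those without Tgif1 OE replicate 2, 3 or 4 or BirA control replicate 1, 2 or 4, and that of Elovl6 over replicates 3 and 4 alone (-0.16). Fads2 (0.12 ± 0.10), Fads1 (-0.11 ± 0.13), Fasn (-0.07 ± 0.08), Dhcr7 (0.01 ± 0.16) and Srebf1 (-0.01 ± 0.07), which had been lower on Tgif1 KD, did not pass here.

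In this comparison 7 of 12 ES cell markers (58.3%, against 9.51% of all genes) were lower and 0 higher, with the mean over the list at 11.3 to 11.6 log2 against 11.8 to 11.9 on BirA control. Fibroblast markers were higher for 6 of 13 (46.2%, against 11.4% of all genes) and lower for 0, with a mean of 5.10 to 5.46 against 4.56 to 4.79. Both zeros were also 0 at an unadjusted limma p under 0.05. The part of either in the lipid gene changes was not tested.

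The effect of the knockdown and that on the arrays labelled Tgif1 OE use separate controls, and their difference was tested directly. For 5 of the 32 members the knockdown effect was higher and for 11 it was lower, against 13% and 14.6% of all genes, or 27.6% in either direction. The difference was 2.93 ± 0.21 for Acss1 (adjusted p = 2.15e-07, or 1.22 for the mean of its probe sets), 2.75 ± 0.27 for Acss2 (3.48e-06) and 1.40 ± 0.16 for Pmvk (1.06e-05). These 3 genes rose on Tgif1 KD and fell on the arrays labelled Tgif1 OE. Elovl6 did likewise (0.67 ± 0.10, adjusted p = 1.11e-04), and Tm7sf2 had a higher knockdown effect (1.06 ± 0.17, adjusted p = 2.50e-04) with no call on Tgif1 KD itself (0.11 ± 0.14, adjusted p = 0.627).

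On the other side, Fads2 had the largest difference (-1.88 ± 0.17, adjusted p = 1.51e-06), followed by Dhcr7 (-1.01 ± 0.27), Sqle (-0.88 ± 0.15), Fads1 (-0.81 ± 0.23), Fdps (-0.71 ± 0.18) and Fasn (-0.71 ± 0.13). For these 6, the knockdown lowered the gene and the comparison in the overexpression arm did not pass. Hmgcs1, Mvk, Srebf1, Idi1 and Elovl5 made up the rest of the 11, at -0.55 to -0.28. The count of 11 fell to 4 without Tgif1 KD replicate 1 and to 5 without shControl replicate 2. Leaving out either of these arrays ended the calls of Dhcr7, Fads1, Mvk, Srebf1, Idi1 and Elovl5, and leaving out the first also ended that of Fdps. Srebf1 lost its call in 11 of 21 alternatives, Idi1 in 12 and Elovl5 in 10, whereas Fads2, Sqle and Fasn kept theirs in all 21 alternatives. The call of Srebf1 was also lost without Tgif1 KD replicate 2, Tgif1 OE replicate 1, 2 or 4, or BirA control replicate 1, 2 or 4. That of Idi1 was also lost without Tgif1 KD replicate 2, shControl replicate 1, Tgif1 OE replicate 3 or 4, or BirA control replicate 3 or 4. That of Elovl5 was also lost without Tgif1 KD replicate 2, shControl replicate 1, Tgif1 OE replicate 1, 3 or 4, or BirA control replicate 1. With the mean of probe sets, Hmgcs1 and Mvk had no call. The blocked fit, which takes the replicate number as a factor, gave 8 higher members in place of 5. Me1 (0.05 ± 0.11, adjusted p = 0.811), which rose in both arms, and Mvd (-0.09 ± 0.10, adjusted p = 0.525), which fell in both, did not pass this test of the difference. Scd1 (-0.58 ± 0.28, adjusted p = 0.146) and Fdft1 (-0.23 ± 0.11, adjusted p = 0.154) were also called lower in both arms and did not pass it either.

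**Figure D3:**
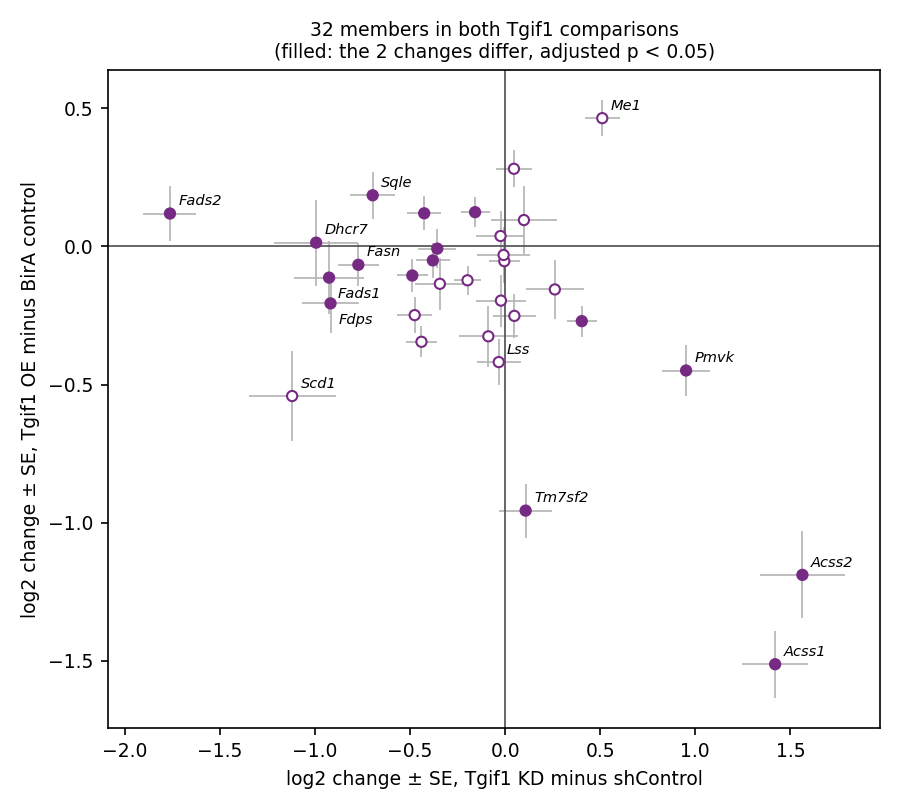
Change of each of the 32 members after Tgif1 knockdown (horizontal, log2) against its change on the arrays labelled Tgif1 OE (vertical, log2), with standard errors and lines at 0; filled points differed between the comparisons at an adjusted p of 0.05. Acss1, at 1.42 and -1.51, and Acss2, at 1.56 and -1.19, lie in the lower right, and Fads2 lies far left near 0 on the vertical axis.

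The arrays labelled Tgif2 OE form a block of their own in the deposit and sit higher, with array medians of 6.52 to 6.56 against 6.41 to 6.51 on the others. The median of all genes rose by 0.12 against BirA control, and the block and the group cannot be told apart. Changes here are therefore given as deposited and then relative to that median. Of the 32 members, 6 were called higher and 5 lower as deposited, against 28.7% and 6.69% of all genes, or 35.4% in either direction. After quantile normalization of all arrays, 4 were higher and 9 lower, and the split of all genes moved to 13.8% higher and 13.0% lower.

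Acss2 fell by the most, as on the arrays labelled Tgif1 OE, with which this comparison shares its 4 controls. It read 5.54, 5.76, 5.29 and 5.53 log2 on the arrays labelled Tgif2 OE and 7.15, 6.85, 6.37 and 6.47 on BirA control. The change was -1.18 ± 0.16 as deposited (adjusted p = 5.77e-05) and -1.30 relative to all genes, or 44.1% of control as deposited. All 4 labelled arrays lay below all 4 controls.

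Mvd read 7.77, 7.79, 7.57 and 7.68 against 8.21, 8.29, 8.28 and 8.25 (-0.55 ± 0.06 as deposited, adjusted p = 6.38e-06, -0.67 relative). Lss read 8.72, 8.65, 8.37 and 8.46 against 9.18, 9.17, 8.99 and 8.94 (-0.52 ± 0.08, adjusted p = 2.48e-04, -0.64 relative). Neither gene overlapped between groups. Pmvk was at -0.35 ± 0.09 (adjusted p = 0.00746, -0.47 relative).

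Acss1 also passed as deposited, at -0.36 ± 0.12 (adjusted p = 0.0331, -0.48 relative), with values of 6.41, 6.27, 6.42 and 6.55 against 6.84, 6.72, 6.72 and 6.79. The dim probe sets of Acss1 gave 0.15 and 0.14 as deposited, and the mean of all its probe sets gave -0.02 and no call. The call was lost in 9 of 17 alternatives (adjusted p from 0.00635 to 0.818), 6 of which leave out BirA control replicate 1, 2 or 4 or Tgif2 OE replicate 1, 2 or 3.

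Me1, Sqle and Fads2 rose by the most. Me1 read 9.28, 9.37, 9.20 and 9.29 on the arrays labelled Tgif2 OE and 8.68, 8.62, 8.47 and 8.44 on BirA control (0.73 ± 0.07, adjusted p = 1.97e-06, 0.61 relative). Sqle read 11.05, 11.06, 10.98 and 10.97 against 10.62, 10.73, 10.39 and 10.35 (0.49 ± 0.08, adjusted p = 4.42e-04, 0.37 relative). Both were above every control array. Fads2 read 8.65, 8.61, 8.18 and 8.25 against 8.03, 7.94, 8.00 and 8.08 (0.41 ± 0.10, adjusted p = 0.00496, 0.29 relative), with 0.64 over replicates 1 and 2 alone, whereas replicates 3 and 4 alone gave 0.18 and no call (adjusted p = 0.126, range over its alternatives 7.17e-04 to 0.126).

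Hmgcs1 rose by 0.36 ± 0.06 (adjusted p = 4.60e-04, 0.24 relative), or by 0.21 after quantile normalization. Hsd17b7 (0.21 ± 0.07, 0.09 relative) and the dim Acaca probe set (0.27 ± 0.09, 0.15 relative) were called higher as deposited, and neither call held after quantile normalization. The call of Hsd17b7 was also lost without BirA control replicate 1 or 2 or Tgif2 OE replicate 1, and that of Acaca without BirA control replicate 2, 3 or 4 or Tgif2 OE replicate 2. Members not called lay between -0.19 and 0.16 as deposited. Of the fibroblast markers 5 of 13 were higher as deposited (38.5%, against 28.7% of all genes) and 0 lower on these arrays (0 lower at an unadjusted limma p under 0.05 too). Of the 12 ES cell markers 2 were higher and 2 lower (16.7% each, against 28.7% and 6.69% of all genes). After quantile normalization 2 of 13 fibroblast markers were higher, against 13.8% of all genes, and 4 of 12 ES cell markers were lower, against 13.0%. Their part in the result was not tested.

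Set against each other, the arrays labelled Tgif1 OE were lower than those labelled Tgif2 OE for 8 members and higher for 1, against 17.4% and 2.25% of all genes, or 19.7% in either direction. The median over all genes was itself -0.10 in this comparison. Acss1 differed by the most (-1.15 ± 0.12 as deposited, adjusted p = 4.21e-05, -1.05 relative), then Tm7sf2 (-0.78 ± 0.10, adjusted p = 1.64e-04, -0.68 relative), Scd2 (-0.35 ± 0.08, -0.25 relative) and Elovl6 (-0.34 ± 0.06, -0.23 relative). The mean of its probe sets gave -0.58 for Acss1, and quantile normalization gave -0.20 for Elovl6. Acss1, Tm7sf2 and Elovl6 kept their call in every alternative tried, and the other 6 called members did not. Acss2, by contrast, stood at -0.01 ± 0.16 (adjusted p = 0.974), with values from 5.24 to 5.81 and from 5.29 to 5.76. The blocked fit, which assumes a pairing by replicate number that the arrays do not show, called 16 members lower in place of 8. The random block on array pairs called 4 lower, and quantile normalization called 3, with 5.41% of all genes higher and 4.54% lower.

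In the overexpression arm, replicates 1 and 2 differed from replicates 3 and 4 in a like way in all 3 groups. Replicates 1 and 2 were above replicates 3 and 4, without overlap in any of the 3 groups, for 9 of the 32 members (28.1%) and below them for 3 (9.38%), against 12.5% and 13.6% of all genes. The 9 were Sqle, Lss, Dhcr7, Srebf2, Stard4, Acly, Acss2, Scd1 and Scd2, and the 3 were Pmvk, Fdps and Ebp. The labels do not say what the pairs are. Within pairs, Acss1 changed by -1.38 and -1.65 and Acss2 by -1.30 and -1.08 on the arrays labelled Tgif1 OE, and Acss2 by -1.35 and -1.01 on those labelled Tgif2 OE. Dhcr7 showed no such agreement on the arrays labelled Tgif2 OE, with 0.28 over replicates 1 and 2 and -0.05 over replicates 3 and 4.

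Genes of neighbouring pathways were counted for comparison, and the share of all genes called is given beside each list. Among 24 measured genes of fatty acid oxidation, which burns what the synthesis genes make, 8 rose and 2 fell (8.33%) on Tgif1 KD, against 12.5% and 12.9% of all genes, with a median change of 0.03. The largest rises were those of Etfdh, which passes electrons from the oxidation to the respiratory chain (1.41 ± 0.14, adjusted p = 3.09e-06), Slc25a20, the carnitine carrier of mitochondria (1.22 ± 0.11), and Ehhadh, a peroxisomal enzyme (1.01 ± 0.14). On the arrays labelled Tgif1 OE, 14 of the 24 fell (58.3%) and 2 rose (8.33%), against 9.51% and 11.4% of all genes, with a median of -0.32. The largest falls were those of Cpt1a, which admits fatty acids to mitochondria (-0.90 ± 0.25, adjusted p = 0.0171), Ppargc1b, a coactivator (-0.62 ± 0.08), and Acadm, an acyl-CoA dehydrogenase (-0.58 ± 0.06). Against BirA control the arrays labelled Tgif2 OE were lower for 7 and higher for 4, led by Ehhadh (-0.71 ± 0.10 as deposited), Acadl (0.54 ± 0.11) and Etfdh (-0.52 ± 0.10). As deposited, 6.69% of all genes were lower there and 28.7% higher. After quantile normalization 11 of the 24 were lower and 2 higher, against 13.0% and 13.8% of all genes.

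The difference between the knockdown effect and that on the arrays labelled Tgif1 OE passed for 14 of these 24 genes, higher for 12 and lower for 2, against 13% and 14.6% of all genes, with a median of 0.40. It was 1.82 ± 0.17 for Etfdh (adjusted p = 1.58e-06), 1.77 ± 0.14 for Slc25a20 (3.73e-07) and 1.50 ± 0.17 for Ehhadh (9.44e-06). Hence Etfdh, Slc25a20 and Ehhadh rose on Tgif1 KD and fell on the arrays labelled Tgif1 OE, as Acss1, Acss2, Pmvk and Elovl6 did. Between the labelled overexpression groups, 8 of the 24 were lower on Tgif1 OE than on Tgif2 OE and 0 were higher (1 at an unadjusted limma p under 0.05), led by Slc25a20 (-0.63 ± 0.08 as deposited). Of all genes 17.4% were lower as deposited, and after quantile normalization 3 of the 24 were lower, against 4.54% of all genes.

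**Figure D4:**
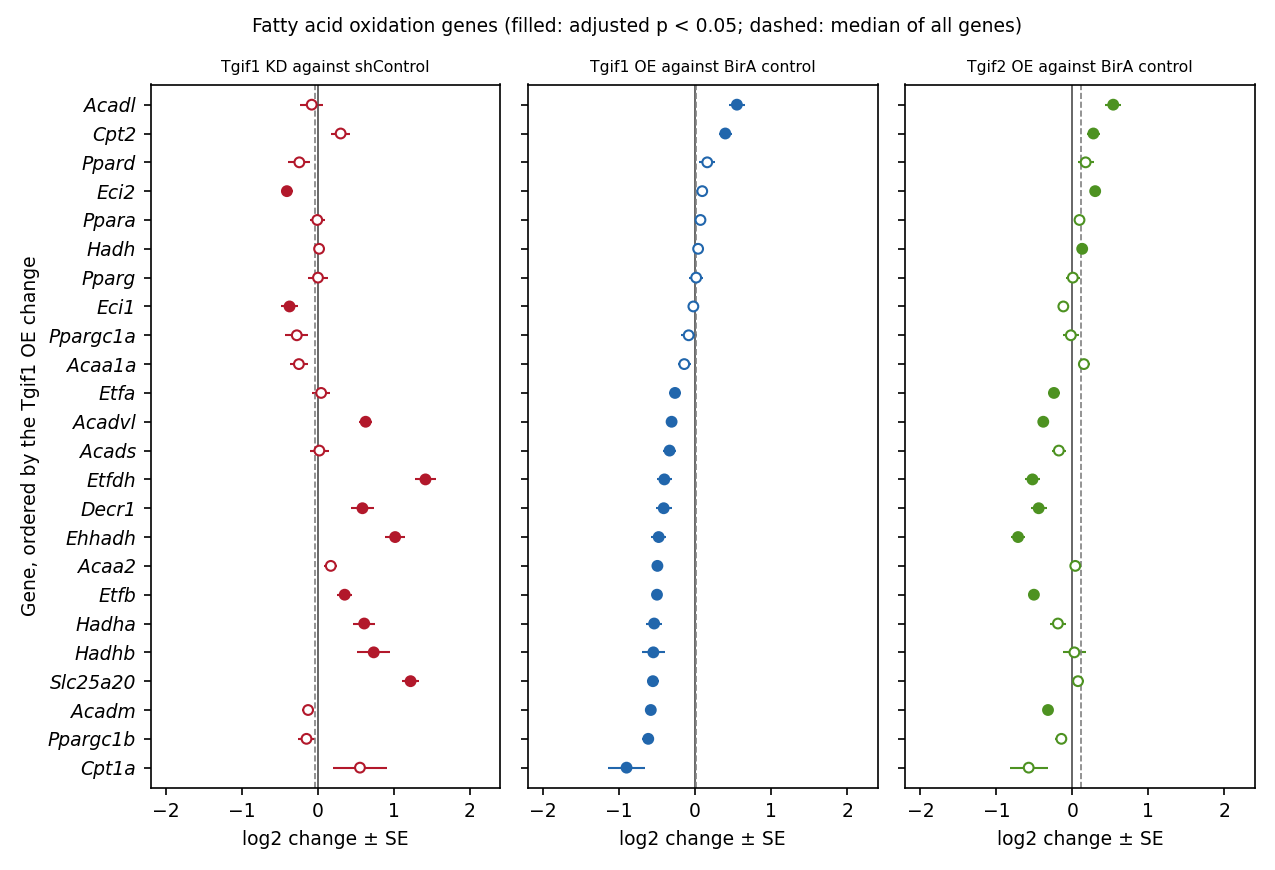
Log2 change of the 24 measured fatty acid oxidation genes, with standard errors, in the 3 comparisons with a control, ordered by the change on the arrays labelled Tgif1 OE; filled points passed the adjusted p of 0.05. On Tgif1 KD 8 rose and 2 fell, and on the arrays labelled Tgif1 OE 2 rose and 14 fell.

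Of 17 other measured genes of sterol metabolism, 3 rose and 1 fell on Tgif1 KD. The 23.5% called is near the 25.4% of all genes. The largest changes were those of Acat1, the mitochondrial acetoacetyl-CoA thiolase (1.07 ± 0.14), Osbp, an oxysterol-binding protein (0.95 ± 0.11), and Rdh11, a reductase of retinal (0.53 ± 0.11). Of the same 17 genes, 3 rose and 2 fell on the arrays labelled Tgif1 OE, among them Scap, the escort of the Srebf proteins (0.65 ± 0.10), Acat1 (-0.43 ± 0.10) and Rdh11 (-0.39 ± 0.08). As deposited, 4 rose and 3 fell on the arrays labelled Tgif2 OE, led by Acat1 (-0.92 ± 0.10), Scap (0.65 ± 0.10) and Osbp (-0.56 ± 0.08). The shares called were 29.4% on the arrays labelled Tgif1 OE, against 20.9% of all genes, and 41.2% on those labelled Tgif2 OE, against 35.4%. After quantile normalization 2 of the 17 were higher and 4 lower on the arrays labelled Tgif2 OE, against 13.8% and 13.0% of all genes. Acat1 thus rose on Tgif1 KD and fell on both groups of labelled overexpression arrays, which share their 4 controls.

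The liver X receptors answer to oxysterols and drive Srebf1 and cholesterol export genes. Of 13 measured receptors, cofactors and targets, 1 rose and 3 fell on Tgif1 KD, or 30.8% called against 25.4% of all genes. Tbl1xr1, a corepressor exchange factor, fell by 1.33 ± 0.08 (adjusted p = 5.76e-08), the lipoprotein gene Apoe rose by 1.17 ± 0.20 (adjusted p = 5.70e-04), and the exporter Abcg1 fell by 0.59 ± 0.13. Of these 13, 1 rose and 4 fell on the arrays labelled Tgif1 OE, among them Apoe (-0.89 ± 0.14), Pltp, which moves phospholipid between lipoproteins (-0.77 ± 0.17), and the lipase Lpl (0.39 ± 0.07). As deposited, 2 rose and 2 fell on the arrays labelled Tgif2 OE, led by Lpl (0.93 ± 0.07), Apoe (-0.50 ± 0.14) and Ncoa6 (0.36 ± 0.09). The shares called were 38.5% on the arrays labelled Tgif1 OE, against 20.9% of all genes, and 30.8% on those labelled Tgif2 OE, against 35.4%. After quantile normalization 2 of the 13 were higher and 4 lower on the arrays labelled Tgif2 OE, against 13.8% and 13.0% of all genes. The difference between the knockdown effect and that on the arrays labelled Tgif1 OE was 2.05 ± 0.25 for Apoe (adjusted p = 2.14e-05).

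Of 31 other measured genes of fatty acid and glycerolipid synthesis, 5 rose (16.1%) and 8 fell (25.8%) on Tgif1 KD, against 12.5% and 12.9% of all genes. Elovl2, an elongase that works after Fads2 on polyunsaturated chains, rose by 1.99 ± 0.17 (adjusted p = 1.24e-06), the acyltransferase Dgat2 fell by 1.10 ± 0.12, and Hacd1, a dehydratase of the elongation cycle, rose by 0.98 ± 0.09. Of these 31, 7 rose and 1 fell on the arrays labelled Tgif1 OE, led by Elovl2 (0.71 ± 0.12), Hacd1 (0.69 ± 0.07) and Elovl4 (0.58 ± 0.09). The 7 are 22.6% of the list, against 11.4% of all genes higher. As deposited, 13 rose and 1 fell on the arrays labelled Tgif2 OE, led by Elovl4 (0.92 ± 0.09), Elovl2 (0.86 ± 0.12) and Acsl4 (0.64 ± 0.09). The 13 are 41.9% of the list, against 28.7% of all genes higher, and after quantile normalization 7 of the 31 were higher and 2 lower, against 13.8% and 13.0% of all genes. Elovl2 and Hacd1, like Me1, were thus higher than control in the knockdown and in both labelled overexpression groups, which share their 4 controls.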

How the data were processed

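Total RNA was profiled on 16 Affymetrix Mouse 430A 2.0 arrays. What the authors deposited is a log2 intensity for each probe set, for which the submitters' processing notes name RMA and, for the Tgif2 OE arrays, also limma; their versions are not given. Precision rests on the number of arrays, 2 or 4 per group, and on a spread per gene that all 16 arrays share. The standard errors and p-values of the knockdown comparison thus also reflect the spread in the overexpression arm, which holds most of the arrays. Of 22690 probe sets, 64 controls, 691 with several symbols and 1555 with no symbol in the 2016 annotation were left out.

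With limma 3.58.1 (R 4.3.3), group means were estimated over the 16 arrays, without a replicate term, for 12393 genes, with Benjamini-Hochberg adjustment over all genes; the threshold was an adjusted p of 0.05. Values after ± are standard errors of a change unless an SD is named. The script was tested on simulated data. The members and lists were chosen with earlier results of these data known. For each comparison with a control, the 6 called members with the largest change got array values, and up to 3 genes per related list were named; Fads1, Fads3, Fasn, Fdps and Sqle on Tgif1 KD and Acss1 on the arrays labelled Tgif2 OE were added after their values were seen.

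Alternatives were quantile normalization, the mean of a gene's probe sets, leaving out the dimmest 33.3% of genes, a trended and robust variance, the groups compared alone, a replicate block, array pairs as a random block or alone, and leaving out each array. Counts of the related lists after quantile normalization were added after seeing the data. Arrays with the same number deviated together in the overexpression arm (correlations of 0.32 to 0.56 over 12 comparisons, with an array's own number its best match in 2 of 12), so there the numbers count as a pairing drawn from the data; in the knockdown arm the correlation was -0.0044.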

Additional observations from a re-analysis of the deposited data

Results flagged for a closer look

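Dixon's test for a single distant array was run on the 96 groups of 4 arrays formed by the 32 measured members and the 3 groups of the overexpression arm, and it marked 2, where chance marks about 1 in 20. Tm7sf2 read 6.27 log2 on Tgif2 OE replicate 3, while the other 3 arrays of that group lay between 6.59 and 6.64, so the gap took 0.851 of the range. Acaca, whose probe set is dim, read 3.89 on Tgif2 OE replicate 2, with the other 3 between 3.66 and 3.67 (0.952 of the range). Without that array the call of Acaca as higher on the arrays labelled Tgif2 OE was lost. The cause of neither value was tested.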

How the results depend on the processing

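The counts of members were recomputed under every alternative. No call of a member reversed its direction. Of the called members, 14 of 18 on Tgif1 KD, 7 of 13 on the arrays labelled Tgif1 OE, 7 of 11 on those labelled Tgif2 OE, 3 of 9 between the labelled overexpression groups and 8 of 16 in the difference of effects kept their call throughout. With array pairs as a random block, 7 members were lower on the arrays labelled Tgif1 OE in place of 11. On the arrays labelled Tgif2 OE, 9 were lower after quantile normalization and 8 over replicates 3 and 4 alone, in place of 5. Between the labelled overexpression groups, the 1 higher member became 0 with the mean of probe sets, the arrays of these groups alone, the random block or replicates 1 and 2 alone, all in limma, with 0, 1, 1 and 0 members at an unadjusted p under 0.05. That member was Mvd. The 8 lower ones there became 3 after quantile normalization, 16 with the replicate block, 4 with the random block and 15 over replicates 1 and 2 alone. In the difference of effects, 8 were higher with the replicate block and over replicates 1 and 2 alone, in place of 5. The replicate block moved no other count by over 1.5 times.

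With single arrays left out, the counts ranged from 5 to 5 higher and 11 to 12 lower on Tgif1 KD, from 2 to 3 and 9 to 10 on the arrays labelled Tgif1 OE, from 4 to 8 and 4 to 5 on those labelled Tgif2 OE, from 0 to 1 and 6 to 11 between these, and from 5 to 7 and 4 to 10 in the difference of effects. The 0 arose without Tgif1 OE replicate 1 or Tgif2 OE replicate 3, each with 1 member at an unadjusted limma p under 0.05. Acaca has no value without the dimmest genes. The cause was not tested for any of these shifts. With 2 arrays per knockdown group, the calls of Dhcr7, Idi1 and Srebf1 each depended on single arrays.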
